A study of Mus musculus with 8 samples.

Results

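The genes by which Leydig cells make androgens, 10 in all, were followed in RNA of whole mouse testis at postnatal day 23 on 8 Affymetrix arrays. They were Star, Cyp11a1, Cyp17a1, Hsd3b1, Hsd3b6, Hsd17b3, Insl3, Lhcgr, Srd5a1 and Nr5a1, chosen by name as genes of Leydig cell steroid synthesis, out of 20664 genes named on the array. The array measured 8 of the 10 with 15 probe sets of their own among 45101 in all. Hsd3b6 was read only by a probe set that it shares with Hsd3b2 and Hsd3b3, and Insl3 only by a probe set that it shares with Jak3. There were 5 arrays labelled wildtype (replicates 1, 2, 4, 6 and 7) and 3 labelled mutant (replicates 3, 5 and 8). According to the study's text, the mutants were homozygous Ctcfl del/del, a germline deletion that takes away the first exons of Ctcfl, and their controls were heterozygous Ctcfl del/+ littermates. On that reading all 8 testes carried at least 1 deleted allele. The labels call the controls wildtype, and that name is kept here. The strain is not given in the labels, nor whether each array was a separate animal, so p-values measure the spread between these samples. Transcripts of Ctcfl were not analysed here, which leaves the genotypes as labelled without a check. Loss of CTCFL, a testis paralogue of CTCF found in late spermatogonia and early spermatocytes, was the condition under study, and the question put here is how the steroid genes of the neighbouring interstitial cells stood in the same RNA.

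Leydig cells lie between the seminiferous tubules and are the main source of androgen in the male. Luteinising hormone, through the receptor Lhcgr, drives STAR to carry cholesterol into the mitochondrion, where CYP11A1 cuts its side chain to give pregnenolone, and HSD3B, CYP17A1 and HSD17B3 then lead to testosterone. In the immature Leydig cells of prepubertal mice SRD5A1 reduces much of the androgen further, whereas adult Leydig cells gain HSD3B6 and HSD17B3 and lose SRD5A1, and postnatal day 23 falls within that transition. CTCFL itself is not known as a Leydig cell protein.

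The Leydig cell genes were for the most part slightly higher in mutant than in wildtype testis, by amounts that the spread between arrays did not allow to be told from 0. Of the 15 probe sets 12 had a higher and 3 a lower mean in mutant testis, against 51.5% higher among all probe sets of the array. These 15 come from 8 genes, and by the main probe set of each gene 6 were higher and 2 lower. The median log2 difference of the 15, mutant minus wildtype, was 0.13 and the range ran from -0.14 to 0.50. Over all 45101 probe sets the median was 0.0032. At an unadjusted limma p under 0.05 there were 2, a Star and a Cyp11a1 probe set, both higher in mutant testis, where 3.47% of all probe sets passed in either direction and 1.76% upward. After Benjamini-Hochberg adjustment over all probe sets none of the 15 passed in limma, nor did any other probe set of the array (0.00%). One of the 15 had groups that did not overlap, against 2.70% of all probe sets in either direction and 1.38% with the mutant arrays higher. In RNA of a whole organ, a change in the number of Leydig cells and a change in RNA per Leydig cell cannot be told apart.

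Arrays differed in features that the groups do not explain, and these are given before the genes. Array medians lay between 6.40 and 6.45 on the log2 scale. A pair of arrays, wildtype replicate 7 and mutant replicate 8, differed from the other 6 in several markers. Centred on the mean over the 8 arrays, a list of 7 spermatid genes stood at 2.05 and 1.49 there and at no more than -0.16 elsewhere, and 6 fat genes stood at 1.14 and 1.13. Between the 3′ and 5′ control probe sets of Gapdh, a sign of RNA quality, the pair had the largest differences (0.31 and 0.33), mutant replicates 3 and 5 the smallest (0.051 and 0.041), and the other arrays 0.11 to 0.22. The same difference for beta-actin did not set the pair apart from wildtype replicate 4, with 1.13 and 1.03 on the pair and 1.03 there. It was lowest on mutant replicate 5, at 0.75, and 0.88 to 0.90 on the other arrays, mutant replicate 3 among them. Crisp1, an epididymal secretory protein gene, read 5.82 on wildtype replicate 1 and 6.38 on mutant replicate 8, against 3.17 to 3.34 on the other 6 arrays. The part of these features in the results below was not tested, and values without the pair are given where they matter. Of 3 genes that mark the adrenal, the other main steroid-making organ, Mc2r (4.40 to 4.82) and Cyp11b1 (4.67 to 5.04) were below the median of every array, and Cyp21a1 was above it by its main probe set (6.71 to 7.06) but below it by its other (5.03 to 5.50).

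**Figure D1:**
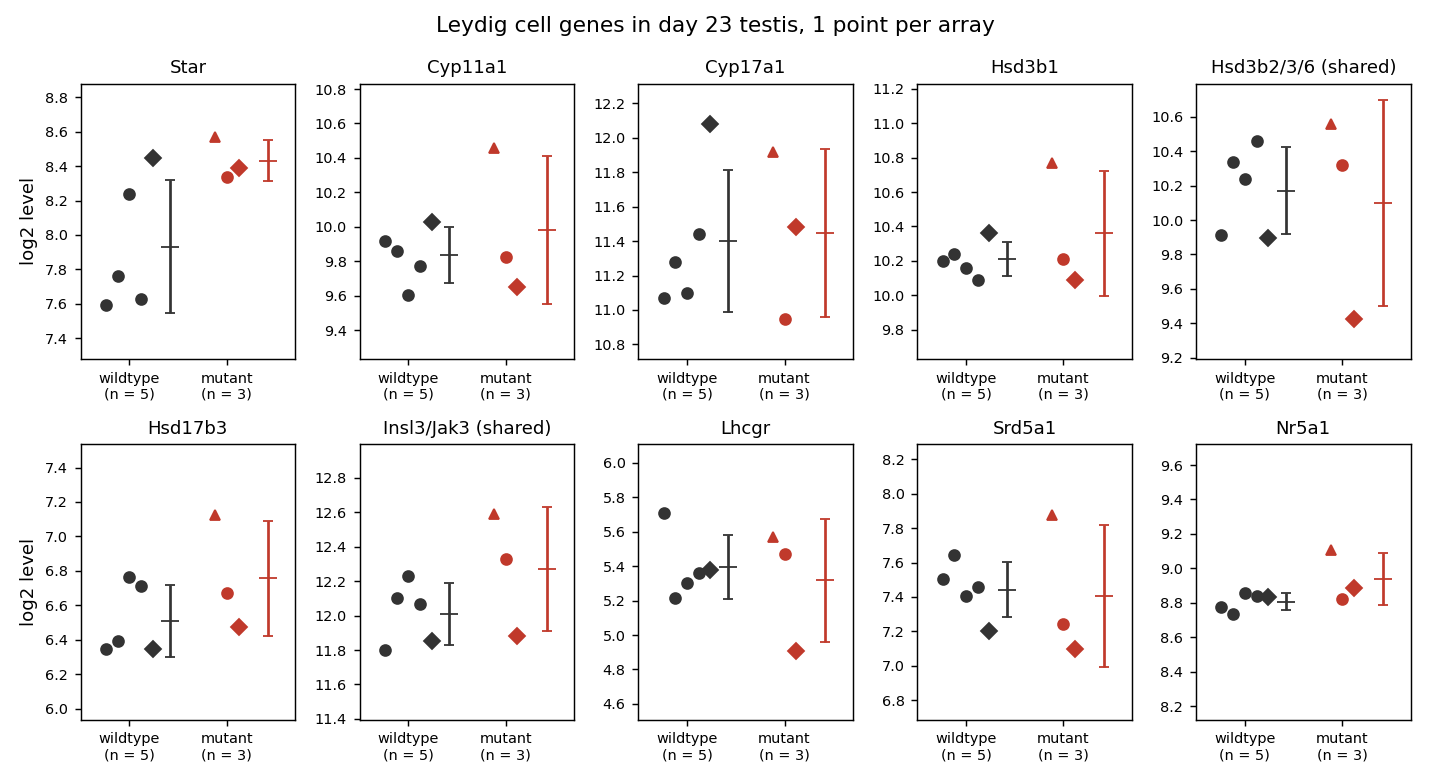
Log2 level (vertical axis, the same span in every panel) of the main probe set of each of the 10 genes on the 5 wildtype (black) and 3 mutant (red) arrays, 1 point per array, with group mean and SD beside the points. Triangles mark mutant replicate 3 and diamonds wildtype replicate 7 and mutant replicate 8. Mutant replicate 3 is the top point in 8 of the 10 panels, and no panel has groups that do not overlap.

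Star encodes the carrier that brings cholesterol to the inner mitochondrial membrane, the step at which the hormone acts fastest. Its main probe set (1418728_at) read 7.59, 7.76, 8.24, 7.63 and 8.45 on wildtype replicates 1, 2, 4, 6 and 7, and 8.57, 8.34 and 8.39 on mutant replicates 3, 5 and 8. All 3 mutant arrays were above 4 of the 5 wildtype arrays, but wildtype replicate 7 was above mutant replicates 5 and 8, so the groups overlapped. The means were 7.93 ± 0.386 (SD, n = 5) and 8.43 ± 0.12 (SD, n = 3), a difference of 0.50 (SE 0.19), or 1.41-fold. Its unadjusted limma p was 0.0269, its adjusted limma p was 1.0 and the exact two-sided permutation p was 0.107, where 56 splits allow none below 0.0357. The difference was 0.65 among the 6 arrays without the pair and -0.06 between mutant replicate 8 and wildtype replicate 7. The other 2 Star probe sets differed by less, at 0.15 (SE 0.18) for 1449201_at and 0.12 (SE 0.15) for 1418729_at. Mutant replicate 8 was the lowest of the 8 arrays by 1449201_at (6.86, against 7.03 to 7.85 elsewhere), so the probe sets of Star disagreed on where that array stands.

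Cyp11a1 encodes the side-chain cleavage enzyme that turns cholesterol into pregnenolone. Its main probe set (1448804_at) read 9.92, 9.86, 9.60, 9.77 and 10.03 on the wildtype arrays, in the order above, and 10.46, 9.83 and 9.65 on the mutant arrays. Mutant replicate 3 was the highest of the 8 and the other 2 mutant arrays lay within the wildtype range. The difference was 0.14 (SE 0.17) at an unadjusted limma p of 0.419.

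The probe set 1439947_at of Cyp11a1 was the one whose groups did not overlap. It read 5.26, 5.35, 5.17, 5.34 and 5.17 in wildtype and 5.52, 5.76 and 5.40 in mutant testis. The difference was 0.30 (SE 0.091), or 1.23-fold, at an unadjusted limma p of 0.00826, an adjusted limma p of 1.0 and an exact permutation p of 0.0357, the smallest that 3 against 5 arrays can give. It held its direction among the 6 arrays (0.36) and within the pair (0.23). It lay below the array's median level on all 8 arrays, as did the third Cyp11a1 probe set, 1457604_x_at, with 0.19 (SE 0.11), whereas the main probe set lay above it on all 8.

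The 3-beta-hydroxysteroid dehydrogenases turn pregnenolone into progesterone, and Hsd3b1 is the form that fetal and adult Leydig cells have in common. Hsd3b1 (1448453_at) read 10.20, 10.24, 10.16, 10.09 and 10.36 on the wildtype and 10.77, 10.21 and 10.09 on the mutant arrays. Only mutant replicate 3 was outside the wildtype range, and the difference was 0.15 (SE 0.14) at an unadjusted limma p of 0.311. The probe set shared by Hsd3b2, Hsd3b3 and Hsd3b6 (1460232_s_at) read 9.91, 10.34, 10.24, 10.46 and 9.90 in wildtype and 10.56, 10.32 and 9.43 in mutant testis. Its highest and its lowest array were both mutant, replicates 3 and 8. The difference was -0.07 (SE 0.24) at an unadjusted limma p of 0.784, and it cannot be given for Hsd3b6 alone.

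Cyp17a1, whose enzyme makes the androgen skeleton from progesterone, had the largest SE of the differences. Its probe set (1417017_at) read 11.07, 11.28, 11.10, 11.44 and 12.08 in wildtype and 11.92, 10.95 and 11.48 in mutant testis. The highest array was wildtype replicate 7 and the lowest mutant replicate 5, so the mutant arrays lay on both sides of most wildtype arrays. The difference was 0.06 (SE 0.26) at an unadjusted limma p of 0.835, with 0.21 among the 6 arrays and -0.60 within the pair.

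Hsd17b3 encodes the enzyme that completes testosterone from androstenedione and is a mark of adult Leydig cells. Its only probe set (1421671_at) read 6.34, 6.39, 6.77, 6.71 and 6.34 in wildtype and 7.13, 6.67 and 6.47 in mutant testis. Mutant replicate 3 was highest, and the other 2 mutant arrays fell within the wildtype range. The difference was 0.25 (SE 0.16), or 1.19-fold, at an unadjusted limma p of 0.15 and an exact permutation p of 0.25. Its signal was above the array median on 5 of the 8 arrays only.

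Srd5a1 encodes the 5-alpha-reductase of immature Leydig cells. Its main probe set (1438699_at) read 7.51, 7.64, 7.40, 7.46 and 7.20 in wildtype and 7.88, 7.24 and 7.10 in mutant testis. The highest and lowest arrays were again mutant replicates 3 and 8. The difference was -0.04 (SE 0.17) at an unadjusted limma p of 0.823. Its other probe sets gave -0.14 (SE 0.17) for 1454649_at and 0.01 (SE 0.14) for 1431101_a_at.

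Insl3 encodes a peptide hormone of Leydig cells that rises as they mature and guides testis descent. The probe set that Insl3 shares with Jak3 (1423021_s_at) read 11.80, 12.10, 12.23, 12.07 and 11.85 in wildtype and 12.59, 12.33 and 11.88 in mutant testis. Mutant replicates 3 and 5 were above all 5 wildtype arrays and mutant replicate 8 was below 3 of them. The difference was 0.26 (SE 0.16) at an unadjusted limma p of 0.126. Among the 6 arrays it was 0.41, and within the pair 0.03.

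Lhcgr, the receptor for luteinising hormone, was below the array median on all 8 arrays (1450192_at). It read 5.71, 5.22, 5.30, 5.36 and 5.38 in wildtype and 5.57, 5.47 and 4.91 in mutant testis, with mutant replicate 8 lowest. The difference was -0.08 (SE 0.16) at an unadjusted limma p of 0.636. Nr5a1 encodes steroidogenic factor 1, the nuclear receptor that switches on most of these enzymes and is also made in Sertoli cells. Its main probe set (1418315_at) had the smallest spread of the main probe sets among wildtype arrays, at 8.78, 8.73, 8.86, 8.84 and 8.83, and read 9.11, 8.82 and 8.89 on the mutant arrays. Mutant replicates 3 and 8 were above all wildtype arrays and replicate 5 was within them. The difference was 0.13 (SE 0.078) at an unadjusted limma p of 0.121, and the second, dimmer probe set (1421730_at) gave 0.04 (SE 0.10).

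**Figure D2:**
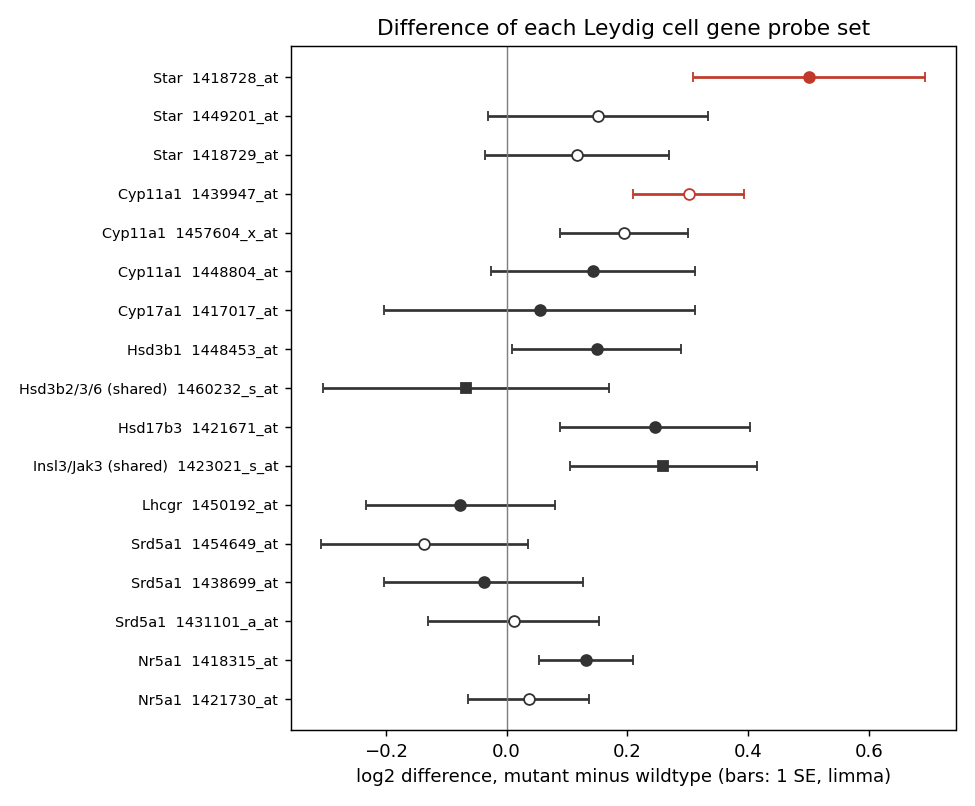
Log2 difference, mutant minus wildtype, of the 15 probe sets of the Leydig cell genes and the 2 shared ones (squares), with 1 SE from limma. Filled points are the main probe set of a gene and open points its others, and the 2 red points, Star 1418728_at at 0.50 and Cyp11a1 1439947_at at 0.30, had an unadjusted p under 0.05. The probe sets of Star and of Cyp11a1 are spread over different sizes of difference.

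Because NR5A1 binds an element with the letters CAAGGTCA or CAAGGCCA, the promoters of its fellow genes were searched for it on both strands. RefSeq promoters of 300 bases were taken from build GRCm38.p6, 250 before and 50 after a start. They were at hand for 7 of the 10 genes, 8 promoters in all, 2 of them for Cyp11a1. For Star, Cyp17a1 and Nr5a1 none was at hand, so the search does not cover those genes. The full element was in 0 of the 8 and in 3.92% of all 32851 promoters. Its core AGGTCA, which lies within CAAGGTCA, was in 2 of the 8 and in 16.3% of all. Both windows are shown, with the core in capitals and written along the strand of the gene, because they are the only stretches of these promoters that hold it. That of Cyp11a1 lies at chr9:58014912-58014941 on the plus strand, with the core 28 bases before the downstream start, and that of Lhcgr at chr17:88792119-88792148 on the minus strand, 122 bases before the start.
Cyp11a1: gaggaaggggggAGGTCAccgctccatcag
Lhcgr: ggccacagtcccAGGTCAaggagaacaggg
These matches describe letters and not binding, and the data here do not bear on either site.

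One mutant array carried much of the upward shift. Mutant replicate 3 was the highest of the 8 arrays for 6 of the 8 main probe sets and for both shared ones, the exceptions being Cyp17a1 and Lhcgr, where 13.6% of all probe sets had it highest. The mean of the 8 main probe sets, each centred on its own mean over the arrays, was 0.43 on mutant replicate 3. It was -0.05 on mutant replicate 5 and -0.12 on mutant replicate 8, within the -0.10 to 0.09 of the wildtype arrays for the former and just below it for the latter. The median difference of the 8 main probe sets was 0.14 with all arrays and -0.08 without mutant replicate 3.

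**Figure D3:**
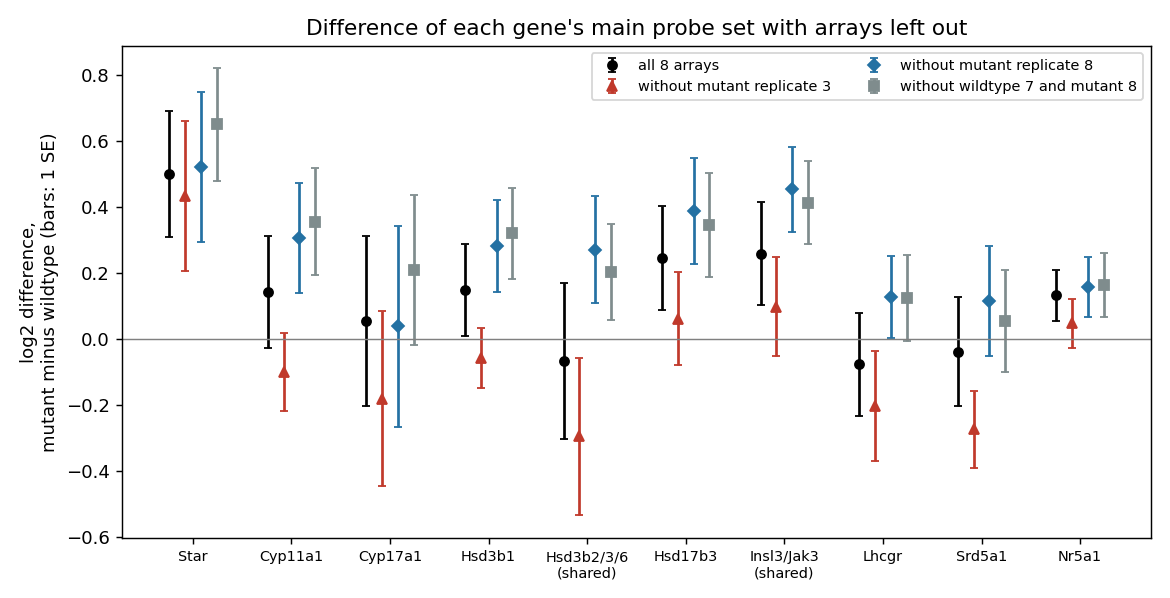
Log2 difference, mutant minus wildtype, with 1 SE for the main probe set of each gene in fits on all 8 arrays (black), without mutant replicate 3 (red), without mutant replicate 8 (blue) and without wildtype replicate 7 and mutant replicate 8 (grey). Star, Hsd17b3, Nr5a1 and the Insl3/Jak3 probe set lie above 0 in all 4 fits, and Cyp11a1, Cyp17a1 and Hsd3b1 lie below 0 without mutant replicate 3.

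The counts also moved with single arrays. Without mutant replicate 3, 3 of the 15 probe sets had an unadjusted limma p under 0.05, 1439947_at of Cyp11a1 upward (0.32) and 1454649_at and 1438699_at of Srd5a1 downward (-0.35 and -0.27), against 4.12% of all probe sets. Without mutant replicate 8 there were 5, all upward, from Star, Cyp11a1 and Hsd17b3, against 5.87%. Without both arrays of the pair there were again 5, from Star, Cyp11a1 and Hsd3b1, against 6.55%. With the pair as a block there were 2, as in the fit on genotype alone, against 5.86%, and the shared probe set of Insl3 and Jak3, outside these counts, passed there too, with 0.31 (SE 0.12) at an unadjusted limma p of 0.0229. That probe set also passed without mutant replicate 8 (unadjusted limma p 0.0064) and without the pair (p 0.00921), against a p of 0.126 with genotype alone on all 8 arrays. The lowest adjusted limma p of any of these genes in any of the fits was 0.751.

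Genes of the immature and the adult Leydig cell were then set against each other within each array, so that a shift common to both drops out. The difference of Hsd17b3 minus Srd5a1 was -1.16, -1.25, -0.64, -0.75 and -0.86 on the wildtype arrays and -0.75, -0.57 and -0.63 on the mutant arrays. The 3 mutant arrays lay above 4 of the 5 wildtype arrays, wildtype replicate 6 only just below them, and wildtype replicate 4 lay among them. The means were -0.93 ± 0.265 (SD, n = 5) and -0.65 ± 0.091 (SD, n = 3). The change was 0.28 (SE 0.16, 95% interval -0.115 to 0.683) with an exact two-sided permutation p of 0.0714, or 0.143 adjusted over the 2 pairs compared. It was 0.29 among the 6 arrays and 0.23 within the pair. Unlike Hsd17b3 and Srd5a1 by their main probe sets, this difference did not have mutant replicate 3 at the top.

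The probe set shared by Hsd3b2, Hsd3b3 and Hsd3b6, set against Srd5a1, gave 2.40, 2.70, 2.84, 3.0 and 2.69 on the wildtype arrays and 2.68, 3.08 and 2.33 on the mutant arrays. Mutant arrays held both the highest and the lowest value. The change was -0.03 (SE 0.21, 95% interval -0.531 to 0.473) with an exact permutation p of 0.857, also 0.857 after adjustment. These intervals hold differences of either sign, and neither shows that the genes moved alike.

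**Figure D4:**
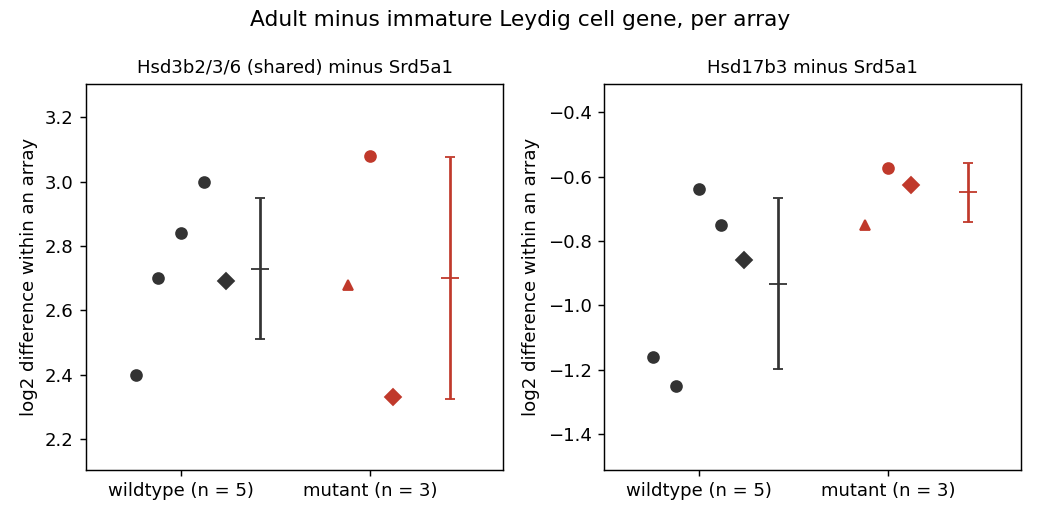
Difference of log2 levels within an array (vertical axis, the same span in both panels) for the shared Hsd3b2, Hsd3b3 and Hsd3b6 probe set minus Srd5a1 and for Hsd17b3 minus Srd5a1, on 5 wildtype (black) and 3 mutant (red) arrays, with group mean and SD. Symbols mark the same arrays as in the plot of levels. The mutant means are 2.70 and -0.65 against 2.73 and -0.93 in wildtype testis, and the groups overlap in both panels.

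Wider lists of the 2 stages did not share a direction, and 51.5% of all probe sets of the array were higher in mutant testis. Of 7 genes of immature Leydig cells (Srd5a1, Akr1c14, Nr2f2, Pdgfra, Tcf21, Lifr and Thbs2), 1 was higher and 6 were lower in mutant testis by their main probe sets, with a median of -0.05 and none at an unadjusted limma p under 0.05. Their centred mean ran from -0.15 to 0.20 in wildtype and was 0.21, 0.09 and -0.36 on mutant replicates 3, 5 and 8. Among all 21 probe sets of these genes, 2 had an unadjusted limma p under 0.05 upward, of Nr2f2 (0.26) and Pdgfra (0.27). There was 1 downward, of Thbs2 (-0.36), and all were secondary probe sets. Across the array 3.47% of probe sets passed in either direction. Of the 6 adult genes with a probe set of their own (Hsd17b3, Hsd11b1, Ptgds, Sult1e1, Vcam1 and Prlr), 4 were higher and 2 lower, with a median of 0.02.

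Ptgds was the exception in the adult list. It encodes a prostaglandin D synthase and read 6.17, 6.32, 6.52, 6.31 and 6.31 in wildtype and 6.58, 6.84 and 6.99 in mutant testis (1423860_at). All 3 mutant arrays were above all 5 wildtype arrays, with mutant replicate 8 highest. Across the array 1.38% of probe sets had the mutant arrays higher without overlap, and 2.70% did not overlap in either direction. The difference was 0.48 (SE 0.10) at an unadjusted limma p of 0.00116 and an adjusted p of 1.0. Its second probe set (1423859_a_at) gave 0.25 (SE 0.12) at an unadjusted limma p of 0.0681, and there the groups overlapped, with wildtype replicate 7 above mutant replicate 3. Ptgds is also made in other cells of the testis and epididymis. Of the arrays with high Crisp1, mutant replicate 8 was highest and wildtype replicate 1 lowest by both Ptgds probe sets. The part of epididymal RNA in these values was not tested.

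The rest of the pathway differed little between the groups. Of 15 genes that supply cholesterol 8 were higher and 7 lower by their main probe sets, with a median of 0.04 and none at an unadjusted limma p under 0.05. Of their 37 probe sets 1 passed, the dim 1455768_at of Npc2, against 3.47% of all probe sets in either direction. It gave -0.20 (SE 0.06) at an unadjusted limma p of 0.00926, whereas the main probe set of Npc2 gave 0.05. By 1455768_at the mutant arrays lay below all wildtype arrays, where 2.70% of all probe sets did not overlap in either direction. Soat1, which esterifies cholesterol for storage, had 0.15 (SE 0.08). Of 6 electron donors to the steroid enzymes none passed that threshold in any of 11 probe sets, with a median of 0.01. Fdxr, the reductase that feeds electrons to CYP11A1, had the largest difference among the main probe sets at 0.12 (SE 0.09), and a second probe set of Cyb5r3 (1425329_a_at) had 0.16 (SE 0.17). Mutant replicate 3 was highest for 5 of these 6 genes by their main probe sets. The exception, Cyb5r3, had a dim main probe set (1430734_at), and its other, brighter probe sets also had mutant replicate 3 highest.

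Of 17 further steroid enzymes 13 were higher and 4 lower, with a median of 0.04 and none passing by the main probe set, although 1455777_x_at of Hsd17b4 gave -0.26 (SE 0.10) at an unadjusted limma p of 0.0265. The main probe set of Hsd17b4 (1417369_at) went the other way, at 0.08 (SE 0.06), with all 3 mutant arrays above all 5 wildtype arrays. Across the array 1.38% of probe sets had the mutant arrays higher in this way. Srd5a2, the other main 5-alpha-reductase, had 0.20 (SE 0.10) between levels of 4.46 and 4.93. Of 15 regulators 11 were higher and 4 lower, with a median of 0.02 and none passing by the main probe set. Of their 39 probe sets 2 passed, both upward, against 3.47% of all probe sets in either direction and 1.76% upward. They were 1444229_at of Nr2f2 (0.26, SE 0.07), whose groups did not overlap, and 1423402_at of Creb1 (0.27, SE 0.10). The main probe sets of these genes gave 0.16 and 0.02. The nearest to the threshold was Nr0b1, which encodes DAX1, a partner that restrains NR5A1, with 0.20 (SE 0.092) at an unadjusted limma p of 0.0521. Egr1, a gene of early hormone response, had 0.25 (SE 0.13).

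Of 17 signals and receptors of Leydig cells and of other cells around them, 10 were higher and 7 lower, with a median of 0.05. Those with an unadjusted limma p under 0.05 by the main probe set were Fshr, the follicle-stimulating hormone receptor of Sertoli cells, with 0.18 (SE 0.08), and Adcy9, an adenylyl cyclase, with 0.15 (SE 0.06). The groups did not overlap for Adcy9, as for 1.38% of all probe sets with the mutant arrays higher. Of the 50 probe sets of this list 4 passed, all upward, the others being 1421916_at of Pdgfra (0.27) and 1449187_at of Pdgfa (0.17), against the 3.47% of all probe sets that passed in either direction and the 1.76% upward. Igf1, a growth factor of Leydig cells, had -0.18 (SE 0.14), and Inha, the inhibin alpha subunit, had 0.15 (SE 0.11). All adjusted p-values in these lists were 1.0.

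Genes of other somatic cells were read for the same arrays. All 7 Sertoli genes with a probe set were higher in mutant testis, with a median of 0.10, and the list stood at 8.26 to 8.36 on the wildtype arrays and 8.34 to 8.51 on the mutant arrays. Mutant replicate 3 was above all wildtype arrays for 6 of these 7 genes. For 5 peritubular genes the ranges were 7.42 to 7.65 and 7.49 to 7.72, with mutant replicate 3 highest. For 6 macrophage genes they were 7.26 to 7.53 and 7.12 to 7.53. There mutant replicate 3 (7.532) was barely above wildtype replicate 2 (7.529), and it was the highest array for 2 of the 6 genes. For 6 endothelial genes they were 6.09 to 6.29 and 6.12 to 6.23. In the peritubular list Acta2 was read by a dim probe set without a suffix (1444105_at, wildtype mean 4.36). Its bright probe set, 1416454_s_at (wildtype mean 12.04), was not in the list mean. The list of 7 spermatid genes had its lowest centred mean on mutant replicate 3, at -1.04, close to the -0.994 of wildtype replicate 1. Prm1, Prm2, Tnp1 and Tnp2 were each lower on another array than on mutant replicate 3. All 4 spermatocyte genes with a probe set were lower in mutant testis, with a median of -0.16, and the list stood at 11.90 to 12.08 on the wildtype arrays and 11.72 to 11.85 on the mutant arrays, lowest on mutant replicate 3. The groups did not overlap for Sycp1, a protein of the synaptonemal complex, with -0.25 (SE 0.08) at an unadjusted limma p of 0.011 and an adjusted p of 1.0. Across the array 2.70% of probe sets did not overlap in either direction. The part of these germ cell and somatic cell differences in the Leydig cell values was not tested.

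Genes outside the list were ranked by how like their profile over the 8 arrays was to that of the Leydig cell genes. That profile was the mean of the 8 main probe sets, each centred on its own mean. The ranking used Pearson's r and took in 11951 genes with a mean level above the median. The closest were Pld3 (0.969), a lysosomal nuclease, Oxct1 (0.965), an enzyme of ketone body use, Rab5if (0.953), Exoc7 (0.939) and Actn3 (0.938), followed by Rab11fip3, Rprd1b, Rcc1l, Minar2 and Plscr3 down to 0.927. Pld3 read 9.79 to 10.02 in wildtype and 10.39, 9.98 and 9.84 on mutant replicates 3, 5 and 8. Mutant replicate 3 was the highest array for each of the 10, and all points share the same 8 RNAs. Spearman's rho, which uses ranks only, was lower, from 0.952 for Pld3 down to 0.524 for Plscr3. Among genes of the pathway lists the closest was Scarb1 (0.904, rank 17), the receptor that takes up cholesterol from high-density lipoprotein. Next came Npc2 (0.845), which moves cholesterol out of lysosomes, Inha (0.81) and Fdx1 (0.81), the ferredoxin that serves CYP11A1. Igf1r (0.806), a growth factor receptor, and Nr0b1 (0.79) followed. Among the cell type markers, Gata1 of Sertoli cells (0.863, rank 55) and Cnn1 of peritubular cells (0.824, rank 102) lay in the same range.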

How the data were processed

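Total RNA of testis was hybridised by the authors to Affymetrix Mouse430_2 arrays, 1 array per sample. Per the labels and the study's methods, the deposited log2 levels were background corrected and normalised by RMA with quantile normalisation. The genome build behind the annotation is not given in the sources used here. The deposited columns of the authors' own comparisons (fold, p-value, score) were not used. Groups and replicate numbers came from sample titles. All 45101 probe sets were fitted unfiltered in R 4.3.3 by limma 3.58.1 (lmFit, eBayes), genotype alone, two-sided, with Benjamini-Hochberg adjustment. The fit was tested on simulated data. Single values were tested by an exact permutation of the 8 arrays over 56 splits, the smaller tail doubled. The main probe set of a gene had no _s, _x or _a suffix where possible and then the highest mean level. The comparison planned as Hsd3b6 minus Srd5a1 used the shared probe set, since Hsd3b6 had none of its own. All 10 genes were described. Of related genes, those with a probe set at an unadjusted p under 0.05 and some of the largest differences were named, and 1 is not reported here. The genes and lists were chosen with earlier results of these data known. Dhrs9, Nr2f1, Clu, Inhbb, Cx3cr1, Plin1, Ovch2 and Hormad1 had no probe set under those names. Alternatives left out each array, used the pair of wildtype replicate 7 and mutant replicate 8 as a block, reweighted, recentred or renormalised arrays, added 100 on the linear scale, or changed the probe set or moderation. The number of arrays limits the precision. The tables and plots were made in Python 3.11.15 (matplotlib 3.10.9, scipy 1.17.1, pandas 2.3.3). Gene names came from the table's Entrez IDs through RefSeq (GRCm38.p6).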

Additional observations from a re-analysis of the deposited data

How the results depend on the processing

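By the main probe set, the difference kept its sign for Star, Hsd17b3, Nr5a1 and the Insl3/Jak3 probe set in every alternative run. So did Hsd17b3 minus Srd5a1 (0.143 to 0.382, exact permutation p 0.0571 to 0.267). Among other probe sets, 1449201_at of Star turned to -0.0792 without mutant replicate 3, and 1421730_at of Nr5a1 to -0.00626 without the pair of arrays. No adjusted limma p in these alternatives was below 0.751. The count of 2 probe sets at an unadjusted p under 0.05 ranged from 1 to 5 with 1 array left out, the highest without mutant replicate 8 and the lowest without wildtype replicate 1, 2 or 6. It was 1 among probe sets above the median level (Star), 1 with the main probe set per gene, 5 without the pair of arrays and 0 after adjustment.

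Leaving out 1 array at a time, the median over the main probe sets (0.137) ran from -0.0781 without mutant replicate 3 to 0.221, and it was 0.265 without the pair. In the same way Cyp11a1 ran from -0.0989 to 0.307, Cyp17a1 from -0.18 to 0.307, Hsd3b1 from -0.0573 to 0.283, the Hsd3b2/3/6 probe set from -0.295 to 0.271, Lhcgr from -0.203 to 0.128, Srd5a1 from -0.273 to 0.116, and the Hsd3b2/3/6 probe set minus Srd5a1 from -0.22 to 0.156. For these single genes the lowest value was that without mutant replicate 3.

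With the pair as a block, Cyp17a1 turned to -0.0103, the Hsd3b2/3/6 probe set to 0.0195, Srd5a1 to 0.0117 and the difference of the last 2 to 0.00782. Without the pair, the Hsd3b2/3/6 probe set turned to 0.203, Lhcgr to 0.124, Srd5a1 to 0.0557 and the Hsd3b2/3/6 probe set minus Srd5a1 to 0.147. Array weights turned the Hsd3b2/3/6 probe set to 0.0388 and Lhcgr to 0.025. With probe set 1431101_a_at Srd5a1 was 0.0119, and with 1454649_at the Hsd3b2/3/6 probe set minus Srd5a1 was 0.0689. The cause of these changes was not tested. The fits without the pair and with shared probe sets counted were chosen after seeing the data, and the block rests on expression values, since no label names the pair. No paired analysis was possible because no replicate number occurs in both groups. With 5 against 3 arrays, no exact permutation p can be below 0.0357, and Lhcgr and the dim probe sets of Cyp11a1 and Nr5a1 lay below the array median.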
